A study of Arabidopsis thaliana with 2 samples.

Results

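Calcium transport in pollen was followed through 7 genes of Arabidopsis thaliana, taken by gene identifier from a list that was drawn up with earlier results of these data known: the cyclic nucleotide-gated channel genes CNGC18 (AT5G14870), CNGC7 (AT1G15990), CNGC8 (AT1G19780) and CNGC16 (AT3G48010), the calcium pump gene ACA9 (AT3G21180), and the glutamate receptor-like genes GLR1.2 (AT5G48400) and GLR3.7 (AT2G32400). All 7 were among the 33557 genes of the table. Pollen tubes of the drop group carried the genotype drop1- drop2- and were compared with wild-type (WT) tubes, with 1 RNA library for each genotype. In both groups the tubes grew semi-in-vivo, out of a cut style onto solid medium with 5 mM CaCl2 and 5 mM KCl, and were cut at 300 to 400 µm outside the style. Each library held tubes from 2 pooled stigmas. The treatment text names double mutant grains for both libraries, so the genotype rests on the genotype label, and the levels of the mutated genes were not checked here. With no replicates, values are given without an error or a test, and "higher" and "lower" describe these 2 libraries alone.

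Pollen tubes elongate at the tip, where calcium ions enter through channels in the plasma membrane and form a gradient that is steepest at the apex. CNGC proteins are subunits of calcium-permeable cation channels with a cyclic nucleotide-binding domain and calmodulin-binding sites. CNGC18 sits at the tip and is needed for tube growth and guidance, CNGC7 and CNGC8 act redundantly to keep germinating pollen from bursting, and CNGC16 is needed for pollen fertility under heat and drought. Glutamate receptor-like proteins such as GLR1.2 and GLR3.7 also carry calcium currents in pollen tubes. ACA9, an autoinhibited P-type ATPase of the plasma membrane, pumps calcium out of the tube and is needed for normal growth and for release of the sperm in the ovule.

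In the RefSeq annotation of TAIR10.1, CNGC18 lies at chr5:4808091-4811093, CNGC7 at chr1:5491133-5494192, CNGC8 at chr1:6833669-6836633, CNGC16 at chr3:17721137-17724140 and GLR3.7 at chr2:13752263-13756893, all on the minus strand. ACA9 lies at chr3:7425476-7432365 and GLR1.2 at chr5:19616066-19619508 on the plus strand. The channel genes differ in how alike their messages are, which bears on whether sequenced fragments can be assigned to each of them. The coding sequences of CNGC7 and CNGC8 were identical at 84.5% of 2205 aligned bases, while the other 5 pairs among the 4 CNGC genes lay between 57.4% and 65.3%. The longest run of bases that CNGC7 and CNGC8 share without a difference is 39 bases long, shown in capitals with 15 bases on each side in lower case, in the coding direction:
CNGC7: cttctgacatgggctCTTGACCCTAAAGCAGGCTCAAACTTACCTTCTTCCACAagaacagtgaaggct
CNGC8: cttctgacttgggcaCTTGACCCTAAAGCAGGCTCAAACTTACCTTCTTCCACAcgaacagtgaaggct
The run lies at coding bases 1738 to 1776 of CNGC7 and 1756 to 1794 of CNGC8, counted from the start codon. No stretch of 50 bases of the CNGC18, CNGC16 or GLR3.7 transcript occurred in the transcript of another gene on either strand. For CNGC7, 7.54% of the 50-base stretches did, for CNGC8 4.83% and for ACA9 3.16%. In each of these genes the shared stretches fell to a neighbour on the opposite strand that overlaps the gene. Inside an overlap, fragments without strand cannot be divided between the genes. PnsB1, which overlaps CNGC7 by 231 bases, was at 2.02 FPKM in drop and 0.372 in WT. PUP14, which overlaps CNGC8 by 169 bases, was at 1.13 FPKM in drop and 6.16 in WT, where it stood above CNGC8 itself. MSR1, which overlaps ACA9 by 173 bases, was listed at 0 in drop and stood at 0.726 FPKM in WT. GLR1.2 shared 0.259% of its stretches with GLR1.3.

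The 250 bases before the annotated start are shown for CNGC18, the channel gene with the highest level in drop, for CNGC16, the gene with the largest ratio, and for ACA9, the most abundant member. They are printed 5′ to 3′ on the strand of the gene. Capitals mark matches on either strand to AGAAA and GTGA, short motifs described for pollen promoters of tomato and tobacco. The CNGC18 window lies at chr5:4811094-4811343 of TAIR10.1 on the minus strand, the CNGC16 window at chr3:17724141-17724390 on the minus strand, and the ACA9 window at chr3:7425226-7425475 on the plus strand:
CNGC18: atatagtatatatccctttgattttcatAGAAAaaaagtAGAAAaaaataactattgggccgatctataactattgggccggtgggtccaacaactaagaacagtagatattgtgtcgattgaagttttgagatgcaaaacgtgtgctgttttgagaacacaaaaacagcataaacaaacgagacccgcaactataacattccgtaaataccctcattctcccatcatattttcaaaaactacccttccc
CNGC16: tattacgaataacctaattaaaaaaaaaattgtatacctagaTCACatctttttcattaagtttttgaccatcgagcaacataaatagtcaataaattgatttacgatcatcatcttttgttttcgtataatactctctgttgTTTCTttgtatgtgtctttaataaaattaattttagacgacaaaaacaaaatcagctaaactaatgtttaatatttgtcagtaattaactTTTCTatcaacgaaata
ACA9: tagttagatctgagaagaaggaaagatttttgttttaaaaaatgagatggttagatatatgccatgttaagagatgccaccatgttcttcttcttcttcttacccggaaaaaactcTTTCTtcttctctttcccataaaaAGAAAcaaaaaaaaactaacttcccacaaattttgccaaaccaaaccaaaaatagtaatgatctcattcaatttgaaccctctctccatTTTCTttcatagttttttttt
AGAAA was found in the windows of all 7 genes, with 2 matches before CNGC18, 2 before CNGC16 and 3 before ACA9, but 82.5% of the windows of 27443 protein-coding genes hold it. GTGA had 1 match before CNGC16, 4 before CNGC7 and 1 before GLR3.7, 0 before the other members, and 77.5% of all windows hold it. The MEF2-type CArG box, a site of pollen MADS-box factors searched with any base in its middle positions, was in 0 of the 7 windows and in 5.80% of all windows. AGAAA and GTGA share no bases in these windows, and none of the 7 windows reaches into another annotated gene.

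Transcripts of CNGC18, CNGC7, CNGC8, CNGC16 and ACA9 were all more abundant in drop tubes as deposited, between 3.06-fold for CNGC8 and 8.72-fold for CNGC16, while the receptor-like genes GLR1.2 and GLR3.7 were at or near 0 in both libraries. Levels are deposited FPKM (fragments per kilobase, by definition relative to the mapped total). They are compared between genes of a library as deposited, and the gene lengths used in them were not checked. FPKM was multiplied by annotated length and summed over the 17910 genes annotated with 1 transcript, 600 bases long or longer. The sum was 1.94 times the largest one this scale allows at annotated lengths in drop, and 0.815 times in WT. Further scaling, or a shorter length used in the deposited FPKM, would each raise this sum, and neither was tested. A ratio of drop to WT as deposited may therefore hold an unknown factor. A gene was called higher or lower when (drop FPKM + 1)/(WT FPKM + 1) passed 2-fold. Adding 1 shrinks the ratio of weakly expressed genes. A gene was counted as measured where either library reached 1 FPKM. Of the 7 genes, 5 were measured; 5 were called higher in drop and 0 lower. Over all 9880 measured genes, 26.4% were called higher and 30.4% lower, and 45.4% were called higher among genes that reached 10 FPKM in either library. The median log2 ratio was 2.08 over the 5 measured members, 2.04 over all 7 and -0.07 over all measured genes. In RNA from pooled tubes, fewer cells of a type and less RNA per cell cannot be told apart.

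CNGC18, the tip channel, was at 26.0 FPKM in drop and 5.06 FPKM in WT, a log2 ratio of 2.15. It was the most abundant of the 4 channel genes in both libraries. These levels rest on about 264 sequenced fragments in drop and 93.9 in WT, estimated as described under the processing.

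CNGC7 was at 13.5 FPKM in drop and 2.44 FPKM in WT, a log2 ratio of 2.08 from about 136 fragments in drop and 44.7 in WT. Its close relative CNGC8 was at 8.70 FPKM in drop and 2.85 FPKM in WT, a log2 ratio of 1.33 from about 89.8 fragments in drop and 53.7 in WT. The order of the pair differed between the libraries: the ratio of CNGC7 to CNGC8 was 1.55 in drop and 0.857 in WT. Ratios of this kind are taken within a library and are not changed by a factor between the libraries. With fragment numbers this low, and no second library of either genotype, the error of the change in this ratio is not known. Both genes overlap a neighbour on the opposite strand. PUP14 over CNGC8 was at 1.13 FPKM in drop and 6.16 in WT, and PnsB1 over CNGC7 at 2.02 in drop and 0.372 in WT. How far fragments of these neighbours enter the CNGC7 and CNGC8 levels was not tested.

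CNGC16, the channel gene tied to heat and drought tolerance of pollen, was at 14.2 FPKM in drop and 1.62 FPKM in WT, a log2 ratio of 2.53. Its WT level rests on about 29.3 fragments, the fewest of the 5 measured genes, against about 140.1 in drop. It had the lowest WT level of the 4 channel genes and the second highest level in drop, where CNGC7 stood close below it. CNGC18 exceeded CNGC16 by 1.84-fold in drop and by 3.12-fold in WT.

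ACA9, the calcium pump, was at 355 FPKM in drop and 85.6 FPKM in WT, a log2 ratio of 2.04. With about 5759 fragments in drop and 2535 in WT it is the best measured of the 7 genes. Its transcript was 13.7 times as abundant as that of CNGC18 in drop and 16.9 times in WT, so the pump message exceeded each channel message in both libraries. ACA9 stood at rank 432 of the 12942 genes above 0 in drop and at rank 696 of 15150 in WT. The channel genes also stood at better ranks in drop: CNGC18 at 1670 in drop and 4226 in WT, CNGC16 at 2302 in drop and 7217 in WT, CNGC7 at 2354 in drop and 6061 in WT, and CNGC8 at 2937 in drop and 5675 in WT. Ranks within a library, like the ratios, do not depend on the factor between the libraries, but they do depend on which other genes are detected.

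**Figure D1:**
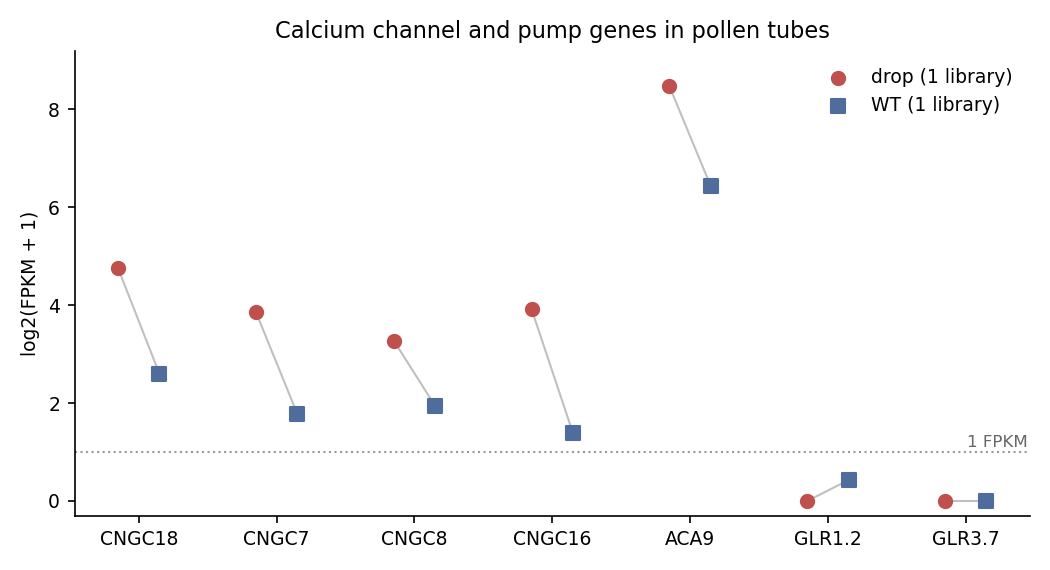
Level of each gene as log2(FPKM + 1) in the drop library (red circles, left of each pair) and the WT library (blue squares), with a dotted line at 1 FPKM. CNGC18, CNGC7, CNGC8, CNGC16 and ACA9 lie higher in drop, ACA9 at 355 FPKM in drop and 85.6 in WT, while GLR1.2 and GLR3.7 lie below 1 FPKM in both.

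GLR1.2, a channel gene tied to D-serine responses of the tube, was listed at 0 in drop and stood at 0.344 FPKM in WT, about 8.01 fragments. GLR3.7 was listed at 0 in both libraries. A listed 0 can be a failed estimate, so no fold is given for either gene. For scale, 1 fragment would have been worth about 0.0678 FPKM in drop and 0.0371 FPKM in WT for GLR3.7, and about 0.0783 FPKM in drop for GLR1.2. The other 18 glutamate receptor-like genes were also under 1 FPKM in both libraries, 12 of them listed at 0 in both, and the highest value of the whole family of 20 was 0.736 FPKM.

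The size of the increase depends on how the libraries are scaled, because the deposited values summed to 3668030 FPKM in drop and 1299600 in WT. With drop rescaled to the WT sum, the log2 ratio was 1.198 for CNGC16, 0.75 for CNGC18, 0.75 for CNGC7, 0.55 for ACA9 and 0.09 for CNGC8, so 1 of the 5 measured genes, CNGC16, was called higher. On that scale 4.39% of all measured genes were called higher in drop and 48.6% lower, and the median over all measured genes was -0.96. Under each of 6 scalings, the deposited values included, all 5 genes lay above 0 and above the median of all measured genes. The scaling to a median ratio of 1 is set by genes that reach 10 FPKM in both libraries. On it the log2 ratio was 1.53 for CNGC16, 1.11 for CNGC18, 1.08 for CNGC7, 0.94 for ACA9 and 0.39 for CNGC8. CNGC16 was called higher under 6 of 6 scalings, CNGC18 and CNGC7 under 4 each, and CNGC8 and ACA9 under 2 each. Of all measured genes, 27.6% were called higher after quantile normalization, 7.8% with a median ratio of 1, 7.72% at equal sums without the 50 most abundant and the organelle genes, and 6.46% at equal sums of FPKM times length. Under quantile normalization, which moves abundant genes most, the log2 ratio of ACA9 was 1.205 and those of the 4 channel genes were between 1.56 and 2.69.

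**Figure D2:**
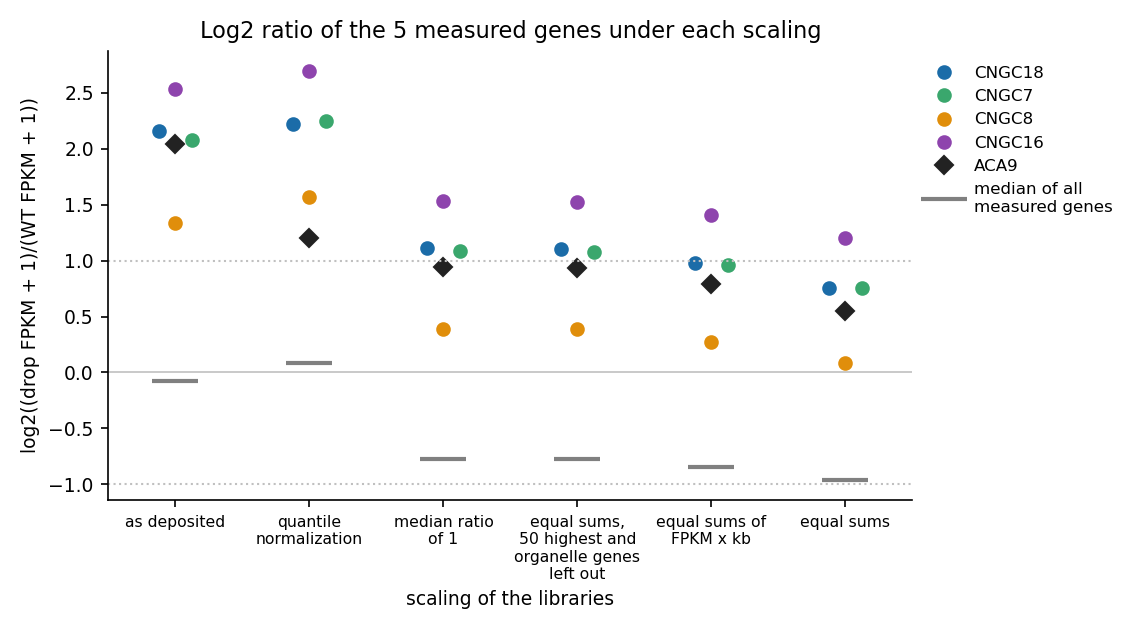
Log2 ratio of drop to WT, with 1 added to each FPKM, for the 5 measured genes under 6 scalings of the libraries, with the median of all 9880 measured genes as a grey bar and dotted lines at 2-fold. CNGC16 is the highest and stays above the upper dotted line throughout, from 2.69 under quantile normalization to 1.198 at equal sums, and all 5 genes lie above the grey bar under each scaling.

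Among the 5 measured genes the ratio of drop to WT differed by up to 2.85-fold, between CNGC16 and CNGC8, a spread that no scaling by 1 factor can change. CNGC18 and CNGC7 stayed in nearly the same proportion, with 1.92 CNGC18 to 1 CNGC7 in drop and 2.07 in WT. CNGC8 was lower relative to each of the other 3 channel genes in drop: CNGC18 exceeded it 2.99-fold in drop and 1.78-fold in WT, and it stood at 0.615 of CNGC16 in drop and at 1.75 times CNGC16 in WT. The part of the overlapping gene PUP14 in the CNGC8 level was not tested.

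The make-up of CNGC transcripts differed between the libraries. Of the 20 CNGC genes, 7 were measured. The 4 pollen genes held 91.5% of the summed CNGC FPKM in drop and 43.1% in WT, a share that is not touched by a common factor and was 89.7% and 41.4% after quantile normalization. The remainder in WT was mostly CNGC10 (AT1G01340), a channel gene best known from roots, with 3.73 FPKM in drop and 10.6 FPKM in WT, a log2 ratio of -1.30. It was the highest CNGC gene in WT, with 38.3% of the family's FPKM there and 5.47% in drop. CNGC9 (AT4G30560), which acts in root hair tip growth, was at 0.312 FPKM in drop, from about 3.32 fragments, and at 3.97 FPKM in WT, a log2 ratio of -1.92. GGP3, which overlaps CNGC9 on the opposite strand by 28 bases, was at 465 FPKM in drop and 115 in WT. CNGC9 and CNGC10 were called lower in drop under 6 of 6 scalings. Of all measured genes, 30.4% were called lower as deposited and 48.6% at equal sums. This share was not taken under the other scalings, and each scaling by a factor lowers all drop values. CNGC6 stood at 1.37 FPKM in drop and 0.700 FPKM in WT, and AT2G23985, which overlaps it on the opposite strand by 621 bases, at 29.7 FPKM in drop and 10.8 in WT. The other 13 CNGC genes were at or below 0.235 FPKM, 9 of them listed at 0 in both libraries.

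**Figure D3:**
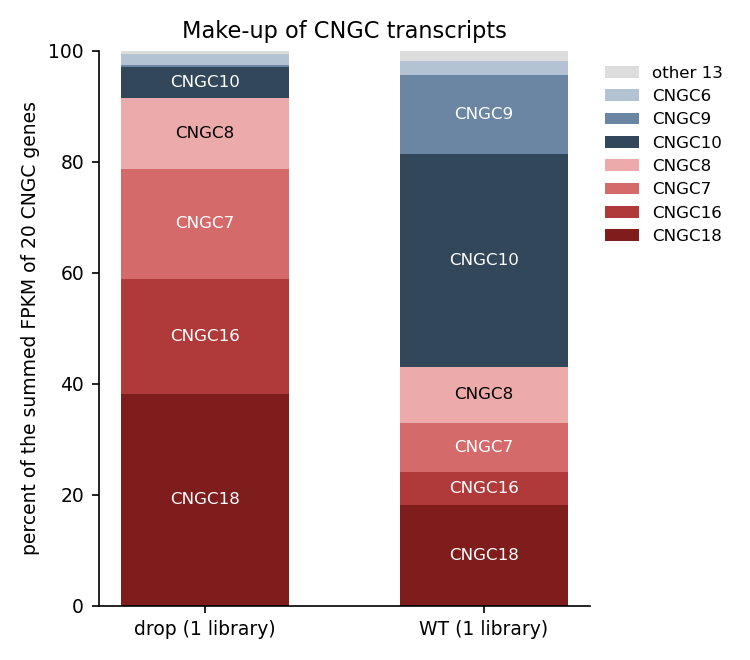
Share of the summed FPKM of the 20 CNGC genes held by each gene, in percent, in the drop library (left bar) and the WT library (right bar). The 4 pollen genes (reds) make up 91.5% of the drop bar and 43.1% of the WT bar, in which CNGC10 alone makes up 38.3%.

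Among the pumps, ACA9 held 98.0% of the summed FPKM of the 10 ACA genes in drop and 92.4% in WT. The endoplasmic reticulum pump gene ACA2 was at 5.33 FPKM in drop and 3.18 FPKM in WT, and the vacuolar pump gene ACA11 was at 1.66 FPKM in drop and 1.62 FPKM in WT. AT3G57320, which overlaps ACA11 on the opposite strand by 432 bases, was listed at 0 in drop and stood at 0.406 FPKM in WT. Neither pump gene passed 2-fold in either direction under any of the 6 scalings. The other 7 ACA genes were below 1 FPKM in both libraries.

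The wider set of calcium transport genes, 63 in all with the CNGC, GLR, ACA, ECA and CAX families, TPC1, MCA1 and MCA2, was measured for 14. Of these, 6 were called higher in drop and 3 lower, with a median log2 ratio of 0.58. Over all measured genes, 26.4% were called higher and 30.4% lower. Without the 7 pollen genes, 9 were measured, 1 was higher and 3 were lower, with a median of 0.02, against -0.07 for all measured genes. The higher gene was CAX3 (AT3G51860), a vacuolar calcium/proton exchanger, at 7.18 FPKM in drop and 1.97 FPKM in WT, a log2 ratio of 1.46 that was 0.25 at equal sums. CAX2 (AT3G13320), a vacuolar exchanger of calcium and manganese, was listed at 0 in drop and stood at 12.1 FPKM in WT from about 205 fragments. CNGC9, CNGC10 and CAX2 were the 3 genes called lower, and for CAX2 the call rests on a listed 0, which can be a failed estimate. CAX4 at 1.86 FPKM in drop and 0.941 in WT and the endomembrane pump gene ECA4 at 0.179 in drop and 1.06 in WT did not pass 2-fold once 1 was added to each FPKM. For ECA4 this rests on the added 1, as its deposited values differ by more than 2-fold. The calcium channel genes TPC1, MCA1 and MCA2 were below 1 FPKM in both libraries.

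**Figure D4:**
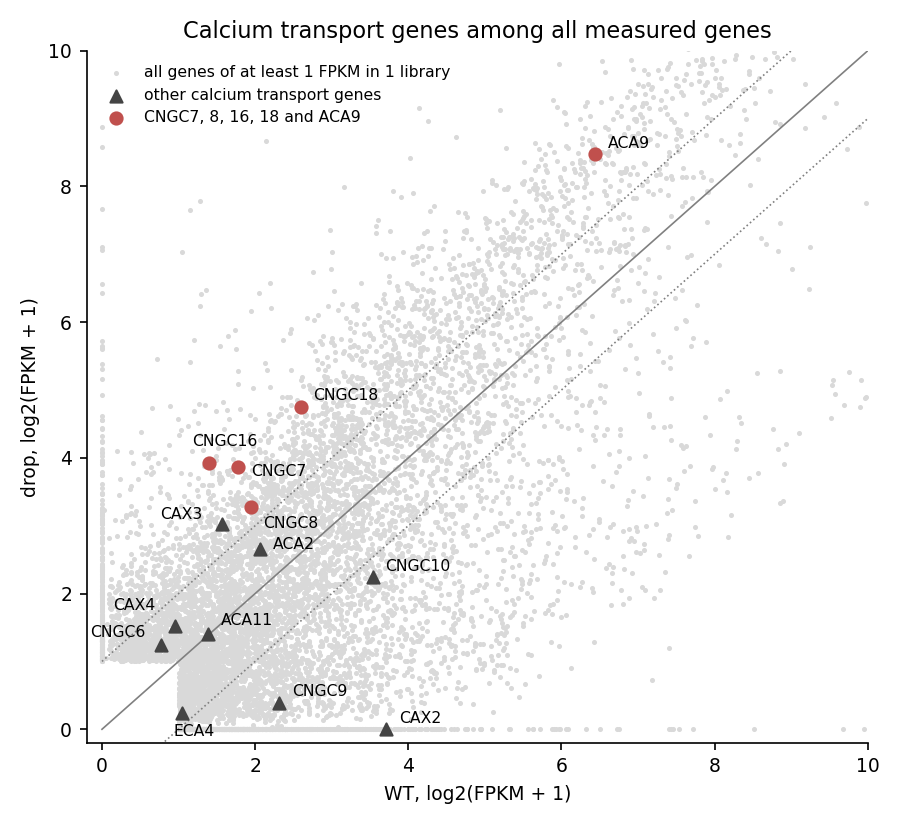
Level of each measured calcium transport gene in drop (vertical axis) and WT (horizontal axis) as log2(FPKM + 1), over all 9880 measured genes in grey; the solid line marks equal values, the dotted lines 2-fold, and genes beyond 10 are not drawn. CNGC7, CNGC8, CNGC16, CNGC18 and ACA9 (red) lie above the upper dotted line, and CNGC9, CNGC10 and CAX2 (triangles) below the lower line.

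Partners of the channels were described from a list of 12 genes for calmodulin, calcium-dependent kinases and cornichon proteins, of which 8 were measured, 6 called higher in drop and 0 lower. At equal sums 1 was called higher, and of all measured genes 26.4% were called higher as deposited and 4.39% at equal sums. CPK32 (AT3G57530), a kinase that activates CNGC18, was at 34.6 FPKM in drop and 7.35 FPKM in WT, a log2 ratio of 2.09, close to that of CNGC18. CAM2 (AT2G41110), a calmodulin gene whose product acts on channels of CNGC18 with CNGC7 or CNGC8, was at 1858 FPKM in drop and 543 FPKM in WT, though calmodulin genes are close paralogs and may share fragments. The tube kinase genes CPK34, CPK17, CPK16 and CPK2 had log2 ratios of 2.61, 1.88, 1.88 and 1.83. CPK34 was at 363 FPKM in drop and 58.6 in WT, CPK17 at 818 in drop and 222 in WT, CPK16 at 87.5 in drop and 23.0 in WT, and CPK2 at 21.5 in drop and 5.31 in WT. CPK20, at 4.19 FPKM in drop and 1.87 in WT, was measured but not called as deposited. The same held for the cornichon gene CNIH4, at 6.31 in drop and 2.83 in WT. Their log2 ratios were 0.86 and 0.93 as deposited, and -0.21 and -0.24 at equal sums. Of the 6 higher partners, only CPK34 was called higher under 6 of 6 scalings. The list's median log2 ratio was 1.85 over the measured genes as deposited and 0.40 at equal sums.

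With levels from 2 libraries, likeness of pattern is a weak measure. It was taken as the distance between genes in log2(FPKM + 1) of both libraries. The 5 genes closest to ACA9, the member with the highest mean level, were BETAG4 (AT5G20330), PERK6 (AT3G18810), PRK6 (AT5G20690), ACT4 (AT5G59370) and AVA-P1 (AT4G34720). Their distances were between 0.0913 and 0.136, among 10646 genes with a symbol. PRK6, a receptor kinase of tube guidance, was at 380.2 FPKM in drop and 85.0 FPKM in WT, and ACT4, a reproductive actin gene, at 337 FPKM in drop and 89.7 FPKM in WT.

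Marker genes of the cells in these libraries differed between the libraries as well. All 10 vegetative pollen markers were called higher in drop as deposited and 2 at equal sums, against 26.4% and 4.39% of all measured genes, with levels from 12.3 to 28010 FPKM in drop and 4.26 to 11006 FPKM in WT. Their median log2 ratio was 1.78, and 0.30 at equal sums, against 2.08 and 0.75 for the 5 measured calcium genes. Of 10 sperm cell markers, 8 were measured and 8 were at least 2-fold lower in drop, and their levels summed to 398 FPKM in drop and 7906 in WT. Most of this sum was DAZ3, at 290 FPKM in drop and 6897 in WT. Of 9 green tissue and pistil markers, 5 were measured and 4 were at least 2-fold lower, with sums of 14.5 FPKM in drop and 124 in WT. RBCS3B alone was at 3.22 FPKM in drop and 83.7 in WT. The carpel and style genes CRC and STY1 were listed at 0 in both. SHP2 of the same list was measured, at 0.273 FPKM in drop and 1.53 in WT. SHP1 was at 0.568 FPKM in drop and 0.448 in WT, and STK at 0.343 in drop and listed at 0 in WT. At equal sums 8 sperm markers and 5 green tissue and pistil markers were called lower. Of all measured genes, 30.4% were called lower as deposited and 48.6% at equal sums. The part of these cell types in the levels of CNGC9, CNGC10 and CAX2, or of the 5 higher genes, was not tested.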

How the data were processed

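RNA of semi-in-vivo pollen tubes was measured by Smart-seq2 in 1 drop and 1 WT library. The authors deposited a table of FPKM per gene, per the file headers. The submitters' processing notes name TopHat2 2.0.14, Cufflinks 2.2.1 and TAIR10. How these tools were set, and whether the values were scaled again, is not given in the sources used here. In drop, deposited FPKM exceed what scaling to mapped fragments alone allows at annotated lengths, so deposited ratios may hold an unknown factor.

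From the deposited FPKM, log2((drop FPKM + 1)/(WT FPKM + 1)) was computed per gene, with a 2-fold rule in place of a test and a filter of 1 FPKM in either library. The members and lists were chosen with earlier results of these data known. Calcium transport and partner genes are named where they reached 10 FPKM in a library or had 1 of the 3 largest ratios; others were named after their values were seen. All 104 list genes were in the table, and 32810 of 33557 identifiers matched the RefSeq table.

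Depth is not given. The value of 1 fragment was read from the distribution of FPKM times length, as the median of its lowest peak, in genes whose only transcript is 3 kb or longer: 0.245 FPKM kb in drop (92 genes) and 0.134 in WT (46 genes). Fragment numbers follow from it and are approximate, and without molecular identifiers fragments can be PCR copies. Transcripts, coding sequences and the 250-base windows were read from RefSeq TAIR10.1, which keeps the nuclear chromosome sequences of TAIR10. Coding sequences were aligned with Biopython 1.88 (match 1, mismatch -1, gap opening -5, gap extension -0.5). The ratio as deposited, and the fold rule with a median ratio of 1, were checked on libraries simulated from the WT values. These differed by a common factor and by equal numbers of raised and lowered genes, so libraries that differ in make-up were not covered. The other scalings were run on them without a pass rule, except that by FPKM times length, which was not run.

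Other settings tried were 0.1 or 10 as the pseudocount, no filter or one of 10 FPKM, a 4-fold rule and 5 scalings. These set equal sums, equal sums with the 50 most abundant and the organelle genes left out, equal sums of FPKM times length, equal quantiles, or a median ratio of 1 among genes that reach 10 FPKM in drop and in WT alike.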

Additional observations from a re-analysis of the deposited data

How the results depend on the processing

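The scaling to equal sums of FPKM times length was added after seeing the data. No paired analysis was possible because a single library stands for each genotype. Of the pollen calcium genes, 5 were called higher in drop as deposited. This count was 3 with 10 as the pseudocount, 3 under the median-ratio scaling, 3 at equal sums with the most abundant and organelle genes left out, 1 at equal sums and 1 at equal sums of FPKM times length. Their median log2 ratio of 2.08 was 0.75 at equal sums and 0.96 at equal sums of FPKM times length. In the list of 63 calcium transport genes, 6 were higher as deposited and 3, 3, 3, 1 and 1 under the same settings in the same order. The number lower was 3. It was 4 with 0.1 as the pseudocount, 1 with 10 as the pseudocount, 1 at 4-fold and 2 with the filter of 10 FPKM. Of all measured genes, 26.4% were called higher as deposited and 7.8% under the median-ratio scaling. With the most abundant and organelle genes left out it was 7.72%, at equal sums 4.39% and at equal sums of FPKM times length 6.46%. Shares of all genes were not taken with the other pseudocounts or at 4-fold, nor the share lower with the filter of 10 FPKM. The median of 0.58 in the list of 63 was 2.06 over the 6 genes that reached 10 FPKM, -0.21 at equal sums, and also below 0 under the 3 other scalings by a factor. A larger pseudocount shrinks low values, and a factor shifts all ratios, by construction. None of the 5 measured genes changed sign under a setting, with CNGC8 nearest to 0, at 0.09 at equal sums. A pseudocount or a filter cannot change a sign. GLR1.2 and GLR3.7, listed at 0 in drop, could not rise above 0 under any setting. With about 29.3 to 93.9 fragments in WT, the channel genes are measured less precisely than ACA9.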
